A study of Mus musculus with 8 samples.

Results

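Gphn, Slc12a5, Nlgn2 and Igsf9b are 4 genes of the inhibitory synapse on the receiving neuron, and they were followed by gene symbol through the 15519 genes of the deposited table. All 4 were present and all 4 passed the filter on low values. The libraries hold nuclear RNA from pyramidal cells of the hippocampus of WT mice, taken after imaging in the living animal had identified the cells as place cells, which fire at particular positions in space. Recurring place cells gave 4 libraries and Day 0 place cells gave 4. The labels name both classes without defining them, give no age, sex, batch or number of nuclei, and name no treatment or allele beyond WT. Library titles carry distinct mouse numbers, which is the one sign that the replicates are different animals, so the p values below measure only the spread between these 8 libraries.

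Fast inhibition in these neurons runs through GABA-A receptors, which are chloride channels. The receptors are held opposite inhibitory terminals by gephyrin, the scaffold protein encoded by Gphn, together with adhesion molecules that face the terminal, among them neuroligin 2 (Nlgn2) and IgSF9b (Igsf9b). Whether an open receptor inhibits depends on the chloride gradient. The potassium-chloride exporter KCC2, encoded by Slc12a5, keeps chloride low inside mature neurons.

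The recovered reads were between 8374986 and 14887866 per library, and the 4 genes had between 97 and 3975 reads in a library. Values are normalized counts, which are reads divided by a library size factor of 0.837 to 1.61. Pyramidal identity was present in every library: the vesicular glutamate transporter gene Slc17a7 stood between 1252 and 3980 in Recurring and between 1654 and 4306 in Day 0 libraries, and 14 markers of CA1 pyramidal cells averaged 10.31 ± 0.26 on the log2 scale in Recurring and 10.13 ± 0.62 in Day 0 libraries (SD, n = 4 each). Recurring replicate 2 stood apart in interneuron markers. Their mean log2 level over the 12 of 14 listed genes present was 8.79 there and between 2.41 and 5.73 in the other libraries, and Gad1, the main enzyme of GABA synthesis, had 4634 normalized counts there. Gad1 was at 3.72, 814 and 0 in Recurring replicates 1, 3 and 4, against 970, 191, 599 and 0 in Day 0 replicates 1 to 4. Gad2, another listed marker, was at 63.2, 1438, 37.1 and 22.3 in Recurring replicates 1 to 4. In Day 0 replicates 1 to 4 it was at 339, 35.9, 0 and 0, so the markers did not rise together in every library. Microglia markers, of which 5 of 10 listed were present, stood at 9.93 in Recurring replicate 4 and at 6.90 or less in the other libraries. They ranged from 3.45 to 9.93 in Recurring and from 1.55 to 4.64 in Day 0 libraries, and astrocyte markers from 6.98 to 9.71 in Recurring and from 4.42 to 8.03 in Day 0 libraries. The part of these cells in the differences below was not tested. In pooled nuclei, fewer cells of a type and less RNA per cell cannot be told apart.

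None of the 4 genes differed between Recurring and Day 0 cells beyond the spread of the libraries. limma with Benjamini-Hochberg adjustment called 0 of the 4 at an adjusted p under 0.05, against 0.00% of the 11078 genes tested. At an unadjusted p under 0.05 it took 0 of the 4, against 3.62% of all tested genes (1.88% higher and 1.74% lower in Recurring cells), and voom on the recovered reads also called 0 genes, with 518 at an unadjusted p under 0.05. The groups overlapped in all 4 genes, where 2.41% of tested genes had groups that did not overlap, 1.17% with Recurring cells lower. The fitted difference, Recurring minus Day 0, was below 0 in 4 of 4, which 49.9% of all tested genes shared, but for Gphn it was close to 0 and its sign changed with the setting and with the library left out. It was -1 log2 unit or less in 1 of the 4, Nlgn2, against 23.7% of tested genes.

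The scaffold gene Gphn had 1372, 701, 2369 and 591 normalized counts in Recurring replicates 1 to 4, against 1376, 853, 1432 and 803 in Day 0 replicates 1 to 4. Recurring cells held both its highest and its lowest libraries, and the Day 0 range lay inside the Recurring one. On the log2 scale, with a pseudocount of 1, Gphn averaged 10.07 ± 0.92 in Recurring and 10.08 ± 0.44 in Day 0 cells (SD, n = 4 each). The difference was -0.00062 (SE 0.61, 95% interval -1.28 to 1.28), with a limma adjusted p of 0.999. The interval spans folds from 0.411 to 2.43, so a change in either direction within that range is not excluded by these libraries. Gphn lies at chr12:78226379-78684772 on the plus strand of GRCm38, and 3.92% of its exon bases overlap the antisense gene Gm48226. The protocol notes used here do not say whether reads were counted by strand.

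The exporter gene Slc12a5, at chr2:164960802-164999731 on the plus strand of GRCm38, was the steadiest of the 4. It had 2240, 1959, 1316 and 2044 normalized counts in Recurring replicates 1 to 4, against 2955, 2480, 2757 and 1859 in Day 0 replicates 1 to 4. Day 0 replicates 1 to 3 were above every Recurring library, while Day 0 replicate 4 fell among the Recurring ones. Slc12a5 averaged 10.86 ± 0.34 in Recurring and 11.27 ± 0.29 in Day 0 cells (log2, SD, n = 4 each), a difference of -0.42 (SE 0.42, 95% interval -1.30 to 0.47) with a limma adjusted p of 0.981. The interval spans folds from 0.405 to 1.38. The highest library was 2.25-fold above the lowest, compared with 4.0-fold for Gphn, 7.51-fold for Igsf9b and 14.5-fold for Nlgn2. The pooled SD of Slc12a5 within groups was 0.32 log2 units, where the median was 0.69 for 673 genes with mean levels within 0.5 log2 units of it, and 2.97% of those genes had a smaller SD. The other 3 genes were less unusual for their level: 33.3% of genes at the level of Gphn, 28.9% at that of Nlgn2 and 62.1% at that of Igsf9b had a smaller SD.

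The neuroligin gene Nlgn2, whose protein binds presynaptic neurexins and gathers gephyrin at inhibitory contacts, had the largest fitted difference of the 4. It lies at chr11:69823122-69837784 on the minus strand of GRCm38. It had 540, 110, 103 and 431 normalized counts in Recurring replicates 1 to 4, against 1491, 694, 597 and 349 in Day 0 replicates 1 to 4. Recurring replicates 2 and 3 were below every Day 0 library and Day 0 replicates 1 to 3 above every Recurring one, but Day 0 replicate 4 was below Recurring replicates 1 and 4. Nlgn2 averaged 7.83 ± 1.26 in Recurring and 9.41 ± 0.86 in Day 0 cells (log2, SD, n = 4 each). The difference was -1.58 (SE 0.95, 95% interval -3.59 to 0.42), and its limma p was 0.114 before and 0.981 after Benjamini-Hochberg adjustment. The median SE over all tested genes was larger, at 1.78 log2 units. Recurring replicates 2 and 3, the low ones, were also the 2 Recurring libraries with the highest interneuron marker levels, 8.79 and 5.11, against 2.61 and 3.75 in replicates 1 and 4. Day 0 libraries did not follow that order: Day 0 replicate 1, the highest in Nlgn2, had an interneuron level of 5.73, the highest of its class. Without Recurring replicate 2 the difference was -1.24, and the part of interneuron RNA in the rest was not tested.

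The adhesion gene Igsf9b, an immunoglobulin superfamily member of inhibitory synapses at chr9:27299204-27357546 on the plus strand of GRCm38, varied widely within both classes. It had 2199, 775, 978 and 367 normalized counts in Recurring replicates 1 to 4, against 901, 1267, 625 and 2757 in Day 0 replicates 1 to 4. The highest library was Day 0 replicate 4 and the next Recurring replicate 1, Recurring replicate 4 was the lowest, and the remaining libraries of both classes were interleaved. Igsf9b averaged 9.79 ± 1.06 in Recurring and 10.21 ± 0.91 in Day 0 cells (log2, SD, n = 4 each), a difference of -0.42 (SE 0.68, 95% interval -1.86 to 1.01) with a limma adjusted p of 0.998. Without Recurring replicate 4, the lowest in Igsf9b and the highest in microglia markers, the difference was 0.0041. Without Day 0 replicate 4, the highest in Igsf9b, it was -0.013, with a microglia marker level of 3.24 in that library.

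**Figure D1:**
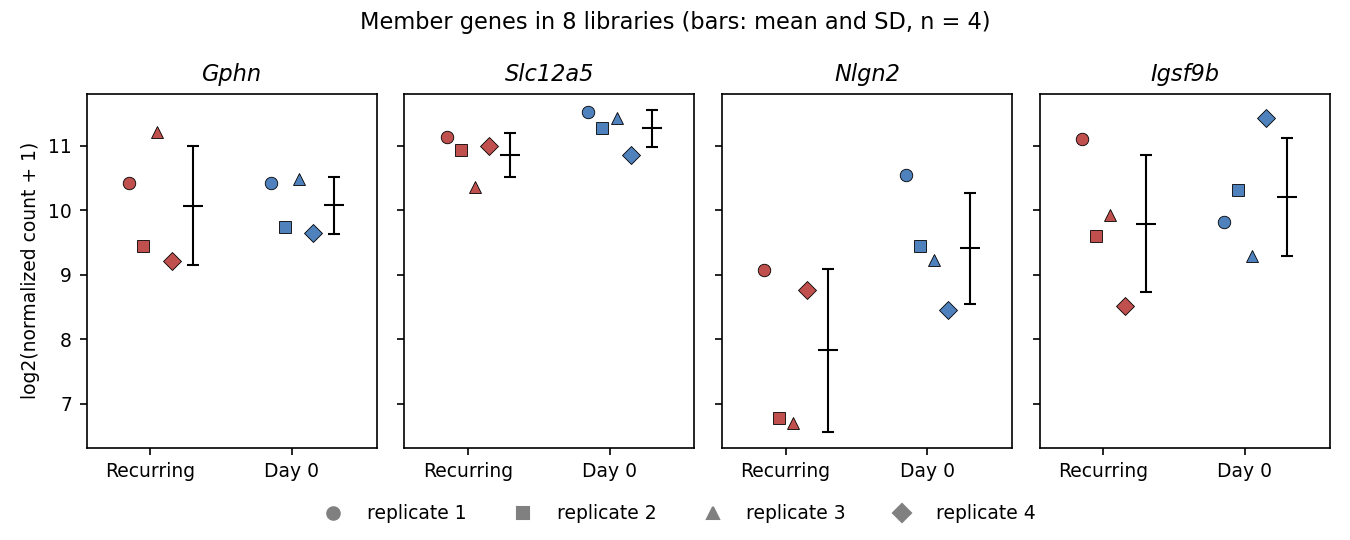
Levels of the 4 genes as log2(normalized count + 1) in Recurring (red, left) and Day 0 (blue, right) libraries. Each point is a library, its shape the replicate number, and the bars are mean and SD (n = 4). The groups overlap in every panel. Slc12a5 is tightly clustered, from 10.36 to 11.53, and Nlgn2 is spread from 6.70 to 10.54.

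Per length of transcript, Gphn and Slc12a5 were the abundant pair. Normalized counts per kb of exon were 336 ± 218 for Gphn in Recurring and 298 ± 89.1 in Day 0 cells, and 254 ± 53.8 for Slc12a5 in Recurring and 337 ± 64.1 in Day 0 cells (SD, n = 4 each). These 2 genes did not keep a fixed order: Slc12a5 was the highest of the 4 per kb in 5 of the 8 libraries. The adhesion genes stood lower, Nlgn2 at 51.2 ± 38.6 in Recurring and 135 ± 85.4 in Day 0 cells and Igsf9b at 64.7 ± 47.2 in Recurring and 83.2 ± 56.9 in Day 0 cells (SD, n = 4 each). Gphn was above Nlgn2 in 8 of 8 libraries, while Nlgn2 was above Igsf9b in 4 of 8. Exon lengths of 3.75, 7.45, 5.79 and 16.7 kb for Gphn, Slc12a5, Nlgn2 and Igsf9b came from GENCODE on GRCm38, so the per-kb values also depend on how well those exon models match the transcripts in these cells.

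Slc12a5 and Nlgn2 varied together across the libraries. Over the 8 libraries the log2 levels of Slc12a5 and Nlgn2 gave Pearson's r = 0.86 (2-sided exact permutation p = 0.00466, adjusted p = 0.028 over the 6 pairs of the 4 genes). Spearman's rho was 0.95 (exact permutation p = 0.00114, adjusted p = 0.00685). The 2 libraries farthest from the median of Slc12a5 were Recurring replicate 3, lowest in both genes, and Day 0 replicate 1, highest in both, and without them r was 0.65. Both permutation tests shuffled the 8 libraries without regard to class, and both genes had lower means in Recurring cells. The class difference therefore enters r, rho and their p values. With each group's mean taken away r was 0.78, for which no p was computed. Without Recurring replicate 2, the library high in interneuron markers, r on the unadjusted levels was 0.96. Scaled to library totals instead of size factors r was 0.90, and on the deposited values it was 0.85. Each was set beside 5576 tested genes with reads in all 8 libraries, with predicted genes and clones left out by symbol. Few of them followed either one more closely: 10 had a higher r with Slc12a5 than Nlgn2 did. With Nlgn2, 11 had a higher r than Slc12a5 did. The other 5 pairs had r between -0.18 and 0.17, with an adjusted permutation p of 0.913 each. Those of Gphn with Slc12a5 and with Nlgn2 were -0.18 and -0.05. Without Recurring replicates 3 and 4, the farthest from the median of Gphn, they were 0.75 and 0.72, with no test made. With each group's mean taken away they were -0.23 and -0.06, and without Recurring replicate 2 they were -0.25 and -0.34. Scaled to library totals they were -0.06 and 0.04, and on the deposited values 0.19 and 0.16.

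**Figure D2:**
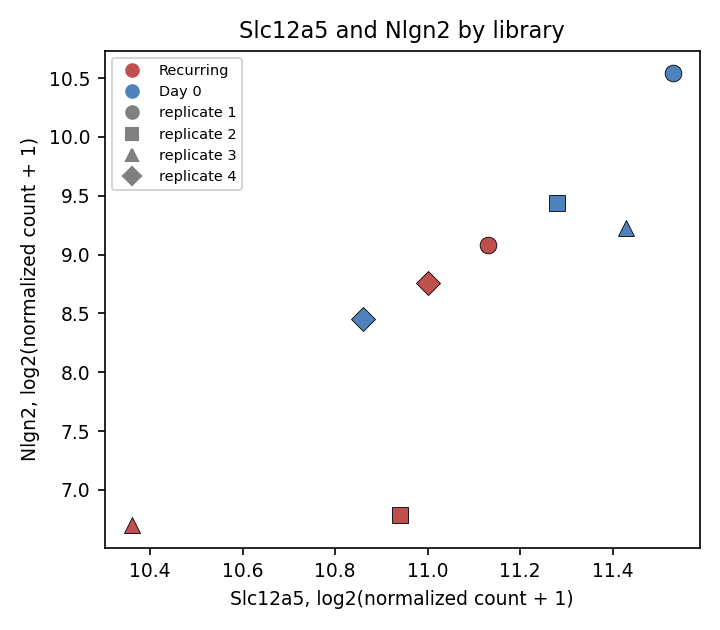
Slc12a5 (horizontal axis) against Nlgn2 (vertical axis), both as log2(normalized count + 1), in the 4 Recurring (red) and 4 Day 0 (blue) libraries, with shapes for replicate numbers. The points climb from Recurring replicate 3 at the lower left to Day 0 replicate 1 at the upper right, and Recurring replicate 2 lies below the others of similar Slc12a5 level.

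Because Slc12a5 and Nlgn2 moved together, the sequences around their transcription starts are shown, as RefSeq gives them on GRCm38.p6, from 250 bases before to 50 bases after the start. They were searched on both strands for motifs bound by factors that respond to neuronal activity or recognise E-boxes: AP-1 (TGANTCA), CRE (TGACGTCA) and its core (TGACG, which also lies within the full CRE), Egr (GCGNGGGCG) and the E-box CACGTG. Capitals mark the matches. Slc12a5 has a pair of starts in the table, 7142 bases apart, which gene-level reads cannot separate. The first window is chr2:164960596-164960895 and the second chr2:164967738-164968037, both on the plus strand, and the Nlgn2 window is chr11:69837735-69838034 on the minus strand.
Slc12a5 first start: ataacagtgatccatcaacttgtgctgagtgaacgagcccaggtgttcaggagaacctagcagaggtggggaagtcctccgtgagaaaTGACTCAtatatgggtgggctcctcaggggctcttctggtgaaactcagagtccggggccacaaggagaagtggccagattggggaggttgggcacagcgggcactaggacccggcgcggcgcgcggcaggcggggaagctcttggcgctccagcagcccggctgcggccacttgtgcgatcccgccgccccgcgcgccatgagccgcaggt
Slc12a5 second start: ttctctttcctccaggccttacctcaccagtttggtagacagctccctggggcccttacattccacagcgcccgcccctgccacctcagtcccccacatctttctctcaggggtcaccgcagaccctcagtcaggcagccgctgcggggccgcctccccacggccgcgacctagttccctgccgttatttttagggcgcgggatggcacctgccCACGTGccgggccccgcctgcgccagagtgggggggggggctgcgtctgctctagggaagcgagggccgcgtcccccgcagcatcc
Nlgn2 start: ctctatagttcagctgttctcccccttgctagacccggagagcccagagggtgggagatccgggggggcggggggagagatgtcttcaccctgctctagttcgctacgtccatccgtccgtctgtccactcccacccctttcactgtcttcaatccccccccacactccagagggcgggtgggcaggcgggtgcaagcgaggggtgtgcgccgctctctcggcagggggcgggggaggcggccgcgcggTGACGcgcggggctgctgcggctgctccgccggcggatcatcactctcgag
The first Slc12a5 window holds an AP-1 match at -162 from the start, the second an E-box at -36, and the Nlgn2 window a CRE core at -1. The windows therefore shared none of the motifs searched. Among all 32851 windows of this length in the table, 7.81% held the AP-1 letters, 7.15% the E-box, 20.8% the CRE core, 1.79% the full CRE and 5.55% the Egr letters. The windows shared a high GC content, 63.7%, 68.3% and 68.7%, against a median of 52.7% over all windows. The Gphn window, at chr12:78226405-78226704 on the plus strand, had 77.0% GC and an Egr match on the reverse strand, 19 bases past the start, and Igsf9b was not in the promoter table. A match is a description of letters, and no binding was measured. Why Slc12a5 and Nlgn2 varied together was not tested.

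No partner gene of the inhibitory postsynapse passed the threshold. Of 37 listed adhesion and scaffold genes 32 were tested, 13 with higher and 19 with lower means in Recurring cells. The median difference was -0.32, against 0.005 over all tested genes, with 0 called and 0 at an unadjusted p under 0.05 by limma. Lhfpl4, whose protein links GABA-A receptors to neuroligin 2, had 172, 84.8, 119 and 328 normalized counts in Recurring cells, against 508, 293, 483 and 518 in Day 0 cells. Recurring replicates 1 to 3 lay below every Day 0 one and only Recurring replicate 4 reached into the Day 0 range. The difference of -1.50 (SE 1.06) had a limma adjusted p of 0.981 and lay between -1.86 and -1.22 with any 1 library left out.

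Other partners were spread to both sides of 0. Slitrk3, an adhesion gene of inhibitory synapses, differed by -1.36 (SE 1.37), by -2.38 without Recurring replicate 1 and by -0.47 without Day 0 replicate 4. Mdga1, whose protein binds neuroligin 2 and blocks its contact with neurexins, differed by -0.47 (SE 0.74). Magi2, a synaptic scaffold, differed by -0.57 (SE 0.77), and Iqsec3, a gephyrin-binding exchange factor, by 0.34 (SE 0.75). Left out in turn, single libraries turned the sign of Magi2, to 0.23 without Recurring replicate 1, of Mdga1, to 0.049 without Recurring replicate 4, and of Iqsec3, to -0.20 without Day 0 replicate 3. Among the 3 listed genes with the highest levels, the dystrophin gene Dmd, whose product sits at inhibitory synapses of pyramidal cells, differed by 0.93 (SE 0.48). The actin regulator Enah differed by 0.30 (SE 0.49) and Gsk3b, a kinase that phosphorylates gephyrin, by -0.02 (SE 0.44). Insyn1, an inhibitory synapse scaffold protein gene, was below the filter, with 42.7, 0, 0 and 10.1 normalized counts in Recurring cells, against 127, 0, 0 and 0 in Day 0 cells.

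Nlgn2 was set beside its own family. All 5 listed neuroligins and neurexins were tested, 4 with higher and 1 with lower means in Recurring cells; Nlgn2 itself is not in that list, and 0 were called. Nlgn1, the neuroligin of excitatory synapses, differed by 0.24 (SE 0.52), and by -0.15 without Recurring replicate 1, and 9.16% of its exon bases overlap the antisense gene A830092H15Rik. Nlgn3, found at both kinds of synapse, differed by -0.78 (SE 0.71), and by -0.065 without Recurring replicate 4; 41.2% of its exon bases overlap the same-strand gene Gm21986, so its count is uncertain. The neurexin gene Nrxn3, a presynaptic partner of neuroligins, differed by 0.73 (SE 0.43).

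The receptors that gephyrin and neuroligin 2 hold in place were likewise divided. Of 12 listed synaptic GABA-A subunit genes 11 were tested, 6 with higher and 5 with lower means in Recurring cells, a median difference of 0.016 and 0 called. Gabra2, which encodes an alpha subunit, differed by 0.016 (SE 0.57), with single libraries left out between -0.50 and 0.54.

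**Figure D3:**
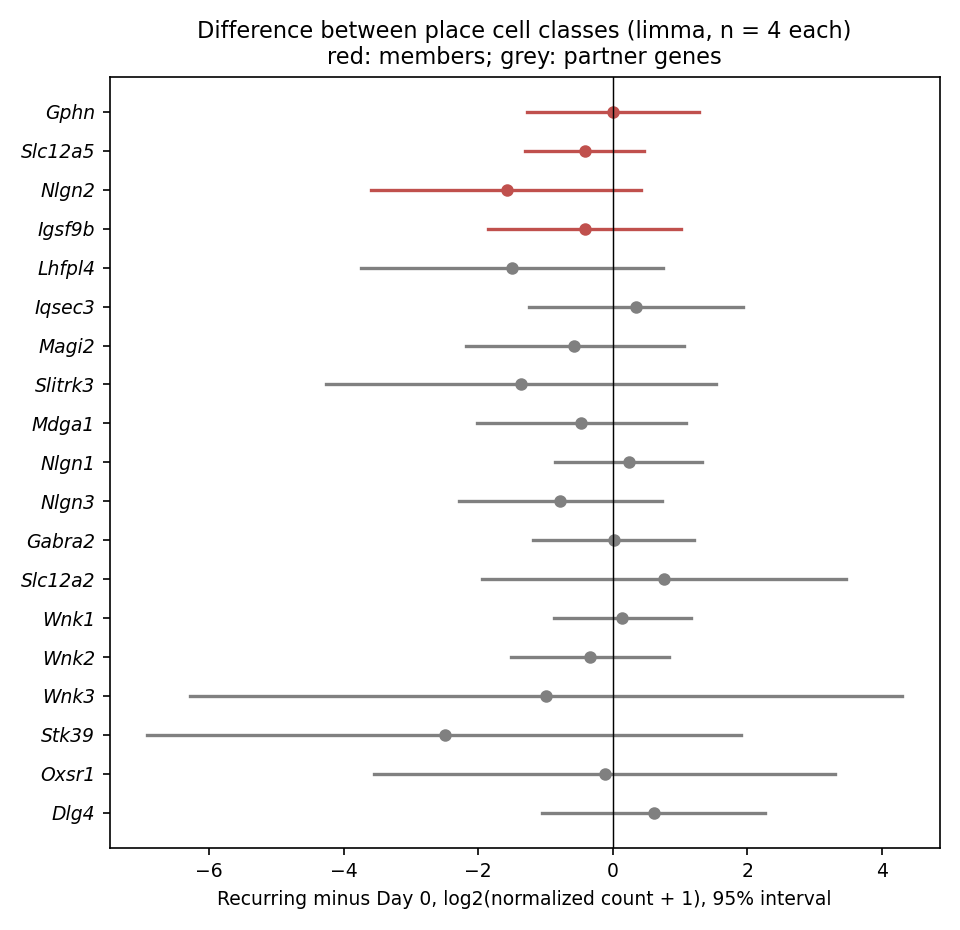
Differences between Recurring and Day 0 cells, as Recurring minus Day 0 in log2(normalized count + 1), for the 4 genes (red) and the partner genes named on the vertical axis (grey). Points are limma estimates and lines their 95% intervals. Every interval plotted includes 0, the narrowest red one is that of Slc12a5, from -1.30 to 0.47, and the widest grey ones plotted belong to the kinase genes Wnk3 and Stk39.

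Chloride balance also depends on the importer NKCC1, encoded by Slc12a2, and on kinases that act on both transporters. Slc12a2 had 243, 497, 327 and 2322 normalized counts in Recurring replicates 1 to 4, against 16.4, 777, 364 and 2297 in Day 0 replicates 1 to 4. Replicate 4 of each class was high and Day 0 replicate 1 low, so the classes overlapped over nearly the whole range. The difference was 0.76 (SE 1.28), with a limma adjusted p of 0.998, and -0.67 without Day 0 replicate 1. The log2 ratio of Slc12a5 to Slc12a2, taken on normalized counts and not per length, was 3.20, 1.98, 2.00 and -0.18 in Recurring replicates 1 to 4, against 7.41, 1.67, 2.92 and -0.31 in Day 0 replicates 1 to 4. It averaged 1.75 ± 1.41 in Recurring and 2.92 ± 3.27 in Day 0 cells (SD, n = 4 each, 2-sided exact permutation p = 0.686, adjusted p = 0.686 over 2 ratios). The smallest p that the 70 assignments allow is 0.0286.

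Slc12a2 is also expressed by glia, whose markers followed it in some libraries and not in others. The mean log2 level of the 10 oligodendrocyte markers present, of 11 listed, was 4.64, 3.78, 5.16 and 8.15 in Recurring replicates 1 to 4, against 6.73, 8.14, 3.56 and 6.96 in Day 0 replicates 1 to 4. The 3 libraries highest in these markers, Recurring replicate 4 and Day 0 replicates 2 and 4, were also the 3 highest in Slc12a2. Day 0 replicate 1 went the other way, with a marker level of 6.73, close to that of Day 0 replicate 4, and the lowest Slc12a2 of all. Of the 10 markers, 0 were at 0 in Recurring replicate 4. Astrocyte markers were mixed as well. The library highest in them, Recurring replicate 1 at 9.71, was the second lowest in Slc12a2. Day 0 replicate 1, the lowest in them, was also the lowest in Slc12a2. The part of glial RNA in the Slc12a2 level was not tested.

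**Figure D4:**
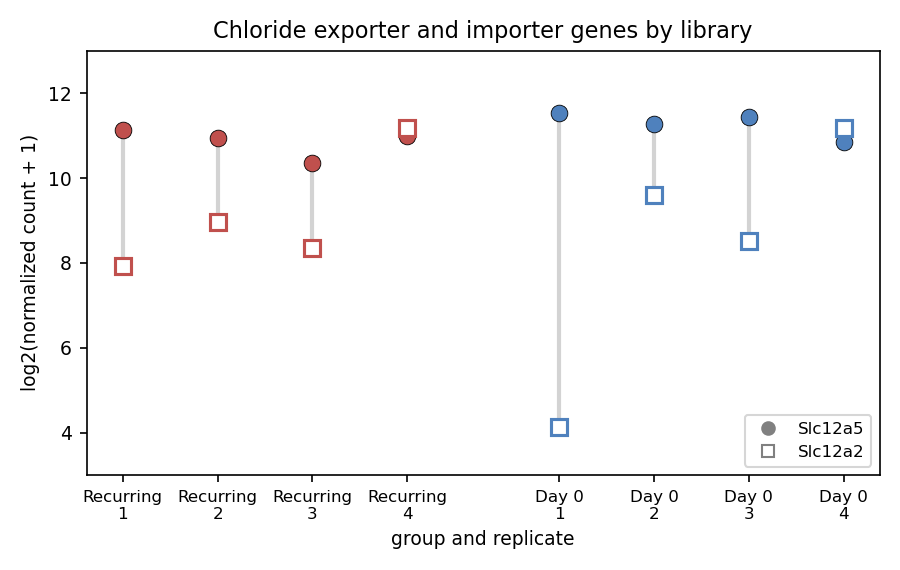
Levels of Slc12a5 (filled circles) and Slc12a2 (open squares) as log2(normalized count + 1) in each Recurring (red, left) and Day 0 (blue, right) library, joined by a grey line. The lines nearly vanish in replicate 4 of both classes, where the log2 ratios were -0.18 and -0.31, and the longest is that of Day 0 replicate 1, at 7.41. Slc12a5 stays nearly level while Slc12a2 accounts for most of the range.

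Across the wider chloride group, 24 of 30 listed transporters, channels and kinases were tested. Differences were above 0 in 10 and below 0 in 14, with a median difference of -0.22 and 0 called. At an unadjusted p under 0.05 there were 2, against 3.62% of all tested genes, both named after their values were seen. Clcn7, a lysosomal chloride-proton exchanger gene, had 1665, 1569, 951 and 1145 normalized counts in Recurring cells, against 622, 496, 533 and 132 in Day 0 cells. Its groups did not overlap, as in 2.41% of all tested genes. Its difference was 1.75 (SE 0.71, limma unadjusted p of 0.0247, adjusted p of 0.981). Cab39, which encodes MO25, an activator of the kinases SPAK and OSR1, differed by -3.60 (SE 1.70, limma unadjusted p of 0.0493, adjusted p of 0.981), and by -1.87 without Recurring replicate 2, which had 0.807 normalized counts.

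Kinases of the pathway that phosphorylates KCC2 and NKCC1 showed no difference past the threshold, and Wnk3, Stk39 and Oxsr1 varied widely. Wnk1 differed by 0.14 (SE 0.48), Wnk2 by -0.34 (SE 0.56) and Wnk3 by -1.0 (SE 2.51). Stk39, which encodes SPAK, differed by -2.50 (SE 2.09) and Oxsr1, which encodes OSR1, by -0.12 (SE 1.63). Single libraries set several of these values: Stk39 was at -0.48 without Recurring replicate 4, and Wnk3 at 0.33 without Recurring replicate 1 and -2.70 without Day 0 replicate 4. Neto2, whose protein binds KCC2, differed by 1.23 (SE 2.27), and by -0.93 without Day 0 replicate 4, in which it was at 0. Its difference was -0.18 without Recurring replicate 2, the library high in interneuron markers, where Neto2 had 3956 normalized counts. The endosomal exchanger genes Clcn3 and Clcn4 differed by -0.34 (SE 0.51) and 0.11 (SE 0.58).

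Gephyrin also makes the molybdenum cofactor, an enzyme cofactor of all tissues. Of 12 symbols listed for that pathway, older spellings included, 5 were in the table and 4 were tested, 3 with higher and 1 with lower means in Recurring cells and 0 called. Mocs2, a subunit of molybdopterin synthase, had 915, 1122, 663 and 1752 normalized counts in Recurring cells, against 82.5, 94.1, 748 and 1489 in Day 0 cells. Day 0 replicates 1 and 2 were below all other libraries, and the remaining Day 0 libraries lay within the Recurring range. Its difference was 1.77 (SE 0.96), with a limma p of 0.0815 unadjusted and 0.981 adjusted. Nfs1, a cysteine desulfurase gene that supplies sulfur to the pathway, differed by -0.96 (SE 0.97), and by 0.0063 without Recurring replicate 2. Mtarc2, of a molybdenum enzyme, differed by 2.92 (SE 2.08), a value resting on low counts. It had 119, 40.4, 16.9 and 21.3 normalized counts in Recurring cells, against 23.8, 23.1, 0 and 0 in Day 0 cells. Mocs1, of the first step, was below the filter.

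Gphn was also set against Dlg4, which encodes PSD-95, the scaffold of excitatory synapses. Dlg4 differed by 0.61 (SE 0.78). The log2 ratio of Gphn to Dlg4 was 0.77, 0.83, 2.03 and -1.22 in Recurring replicates 1 to 4, against 1.34, -0.36, 2.43 and 1.43 in Day 0 replicates 1 to 4. Recurring replicate 4 was the only library of its class with less Gphn than Dlg4, and Day 0 replicate 2 the only one of its own. The ratio averaged 0.60 ± 1.34 in Recurring and 1.21 ± 1.16 in Day 0 cells (SD, n = 4 each, 2-sided exact permutation p = 0.543, adjusted p = 0.686 over 2 ratios). Of 8 listed excitatory scaffold genes, all tested, 2 were above and 6 below 0 in the difference, with a median difference of -0.36 and 0 called. Dlgap1 differed by -0.16 (SE 0.28), Shank1 by -0.56 (SE 0.36) and Dlg2 by 0.22 (SE 0.50).

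The genes whose levels followed each of the 4 most closely were different ones, apart from Scaper. The comparison took 5576 tested genes with reads in every library, predicted genes and clones again left out. The highest r over the 8 libraries with Gphn was that of Btbd8, at 0.92, then Kcnq1ot1 at 0.89 and C2cd5 at 0.88. For Slc12a5 they were Cdh2, which encodes N-cadherin, at 0.94, and Atxn2l and Scaper at 0.92 each. For Nlgn2 they were Scaper at 0.96, Lmln at 0.93 and Entrep2 at 0.91. For Igsf9b they were Mllt3 at 0.98, the membrane skeleton gene Epb41l3 at 0.97 and Anapc4 at 0.96. With this many genes and 8 libraries sharing depth and cell makeup, values of this size describe the libraries, and no test was made of them.

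**Figure D5:**
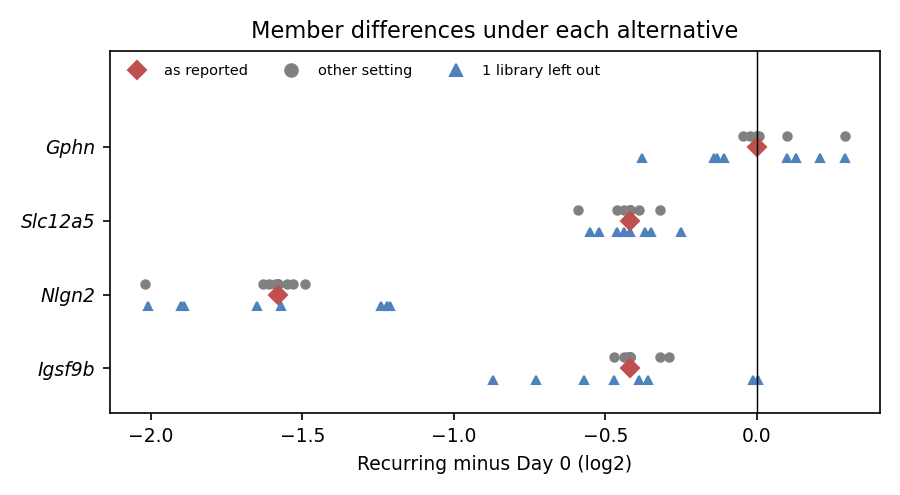
Recurring minus Day 0 differences (log2) of the 4 genes as reported (red diamonds), under each other setting (grey circles) and with 1 library left out (blue triangles). Slc12a5 and Nlgn2 stay below 0 throughout, from -0.59 to -0.25 and from -2.02 to -1.21, while Gphn lies on both sides of 0 and Igsf9b reaches 0.0041.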

How the data were processed

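Nuclear RNA libraries made with a SMART-Seq kit were compared as 4 Recurring and 4 Day 0 libraries. Per the submitters' processing notes, STAR and HTSeq were used with GRCm39, and no versions are given in the sources used here. The deposited table holds a scaled signal for each gene in each library, on a linear scale. Within each gene they are whole reads times 1 constant: dividing by it gave whole reads in 95910 of 95910 nonzero values (tolerance 0.1 read). Those constants were the trimmed-mean factors of genes in the place of libraries, so the deposited signal had no correction for depth.

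Size factors by the median of ratios (0.837 to 1.61) then scaled the recovered reads. log2(normalized count + 1) was tested with limma 3.58.1 (R 4.3.3; trended variance, Benjamini-Hochberg adjustment) on 11078 genes with a normalized count of at least 10 in at least 4 libraries; the threshold was an adjusted p of 0.05. The pseudocount shrinks the reported differences of low genes. Where a gene was at 0 in some libraries, its difference also depends on the pseudocount chosen. The fit and the read recovery were run on simulated data as a check of the code. Those data were scaled by the same rule that the recovery assumes, and varied less than most genes did here. The simulation therefore does not show what size of change could be detected in these libraries. Ratios and correlations were tested by exact permutation in Python 3.11.15 with numpy 2.4.6.

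The 4 genes, the 6 pathway lists and the tests were chosen with earlier results of these data known. Genes named are the 4, the 3 tested genes of each list with the highest mean, a set chosen by role and, for likeness, the 3 genes with the highest r per gene; Clcn7 and Cab39 were added after their values were seen, and some genes that the rule takes are not reported here. Positions and exon lengths came from GENCODE vM21 on GRCm38, an earlier build than the authors'. Promoter windows came from RefSeq on GRCm38.p6, and 3 of the 4 genes had one. Replicates are numbered in deposit order, so numbers pair no libraries. Alternatives covered scaling, pseudocount, filter, test and leaving out each library.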

Additional observations from a re-analysis of the deposited data

Results flagged for a closer look

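Within each group of 4 libraries, a sample was singled out where its gap to the nearest other was large against the group's whole range. Of 76 groups examined, 9 held such a sample, and 0 of them were of Gphn, Slc12a5, Nlgn2 or Igsf9b. The cut used gives about 1 in 20 by chance for normally spread values. Groups with most libraries at or near 0 are not spread that way, so the count cannot be read against that rate. All values here are log2(normalized count + 1). Low samples were Recurring replicate 1 for Magi2 at 7.97 and Recurring replicate 4 for Nlgn3 at 7.46. In Day 0 cells the low samples were replicate 3 for Iqsec3 at 8.28, replicate 2 for Lhfpl4 at 8.20, and replicate 4 for Oxsr1 at 3.70, for Neto2 at 0.00 and for Clcn7 at 7.06. High samples were Recurring replicate 3 for Mocs1 at 7.93 and Day 0 replicate 1 for Insyn1 at 7.00. Both of those genes were near 0 in the other samples of the group. For Clcn7, leaving out Day 0 replicate 4 gave a difference of 1.25, compared with 1.75 over all libraries.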

How the results depend on the processing

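Slc12a5 and Nlgn2 stayed lower in Recurring cells, with an adjusted p above 0.05, under all 10 other settings and with each library left out. Their differences ranged from -0.59 to -0.32 and from -2.02 to -1.49 over the settings. With 1 library left out they ranged from -0.55 to -0.25 for Slc12a5 and from -2.01 to -1.21 for Nlgn2. With library weights Nlgn2 had a limma p of 0.0277 unadjusted and 0.983 adjusted, and over all its alternatives the lowest adjusted p was 0.913. Igsf9b ranged from -0.47 to -0.29 over the settings and from -0.87 to 0.0041 with 1 library left out, the last without Recurring replicate 4. Gphn had no stable sign: it was 0.10 on the deposited values, 0.29 with library weights, 0.00074 with a pseudocount of 10 and 0.0073 by voom, and from -0.38 to 0.29 with 1 library left out. The log2 ratio of Slc12a5 to Slc12a2 differed by -1.18, and by -2.25 to 0.32 with 1 library left out, turning above 0 without Day 0 replicate 1. That of Gphn to Dlg4 ranged from -1.13 to -0.0028. limma without the variance trend called 2 genes at an adjusted p of 0.03, with none of the 4 genes among them, and every other setting run called 0. Among other named genes, Gabra2, Wnk1, Clcn4, Dlg2 and Gsk3b, all near 0, and Oxsr1, from -1.57 to 1.27, also changed sign with 1 library left out. The cause of these changes was not tested. edgeR's quasi-likelihood test and DESeq2, both planned on the recovered reads, were not run; voom was run on those reads. No paired analysis was possible because the labels give no replicate numbers shared between the groups. With 4 libraries a class and a median SE of 1.78 log2 units over all tested genes, modest differences could not be detected in most genes.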
